A study of Mus musculus with 8 samples.

Results

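Glucuronosyltransferase and glutathione transferase genes were read in liver RNA of obese, diabetic db/db mice and of control mice. Every gene was taken whose symbol in the expression table begins with Ugt1 to Ugt3, with Gst and a class letter, or with Mgst and a number, and Gstcd, whose protein is not a classical transferase, was left out. The rule uses names alone and found 44 of the 22564 genes in the table, 24 of them Gst or Mgst genes and 20 of them Ugt genes, in 12 subfamilies. RNA was sequenced from 4 livers labelled db/db and 4 labelled C57BL/6, all labelled untreated. The db/db mouse carries a defect of the leptin receptor gene Lepr, eats in excess and becomes obese and insulin resistant. The labels give no age, no sex and no background strain for the db/db livers, and they do not say that the controls are littermates. In the methods of the study the C57BL/6J mice were male, were 10 to 11 weeks old at purchase and came from another supplier than the db/db mice, which were bought younger. No source used here states that the controls were those C57BL/6J mice, and if they were, genotype, supplier and age at purchase cannot be told apart. Lepr stood at 0.617 ± 0.0879 FPKM in db/db and 0.719 ± 0.205 FPKM in control livers (SD, n = 4 each), under the level at which a gene was tested. FPKM, the unit of every level below, counts sequenced fragments relative to the length of the transcript and to the number mapped in the library, so levels of different genes can be set side by side. Values of single libraries are listed in the order of replicates 1 to 4, and a replicate number only names a library within its group. Replicates 1 to 4 are the livers titled db1, db2, db4 and db5 in the db/db group and C5, C6, C7 and C8 in the control group.

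Both families make fat-soluble compounds easier to excrete. Glucuronosyltransferases sit in the membrane of the endoplasmic reticulum and couple glucuronic acid, taken from UDP-glucuronate, to bilirubin, steroids, bile acids and drugs. Glutathione transferases couple glutathione to reactive compounds such as epoxides and the aldehydes left by lipid peroxidation, and most are soluble proteins of the cytosol. The Mgst proteins are membrane-bound enzymes of separate origin with the same chemistry. The liver is the main site of both reactions, and many of the genes respond to the receptors CAR, PXR and AhR, to the oxidative stress factor NRF2, or to the sex-dependent pattern of growth hormone.

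The promoters of the genes on which the results turn are shown first, because members of 1 cluster behaved differently and near-identical copies exist. Windows of 300 bases, from 250 before to 50 after an annotated start, were found in the RefSeq table (GRCm38.p6) for 40 of the 44 genes, in 49 windows. Gsta4, Gstt2, Ugt1a6b and Ugt3a2 had no match. The stretches printed here run from 150 bases before the start to base 50 after it, written 5′ to 3′ on the strand of the gene. The pair of pi class genes lies side by side on the minus strand of chromosome 19, with Gstp1 at chr19:4037863-4038062 and Gstp2 at chr19:4042172-4042371, and capitals mark TGAGTCA, the motif bound by AP-1 (Jun and Fos proteins).
Gstp1: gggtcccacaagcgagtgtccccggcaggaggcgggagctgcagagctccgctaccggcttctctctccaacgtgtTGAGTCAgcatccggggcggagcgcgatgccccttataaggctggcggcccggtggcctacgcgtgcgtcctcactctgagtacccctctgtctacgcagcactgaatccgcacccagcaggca
Gstp2: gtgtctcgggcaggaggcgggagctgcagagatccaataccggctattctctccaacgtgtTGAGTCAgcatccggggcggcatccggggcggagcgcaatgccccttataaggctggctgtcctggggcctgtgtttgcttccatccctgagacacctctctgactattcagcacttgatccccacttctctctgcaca
These stretches were identical at 152 of 218 aligned positions (69.7%). TGAGTCA stood at positions -74 to -68 of Gstp1 and -89 to -83 of Gstp2, counted from the start, and was found on either strand in 5 of the 49 windows and in 5.20% of all 32851 promoters of the table. The other windows with it belonged to Gstm5, Mgst2 and Ugt2b37.

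The next stretches belong to the most abundant soluble and the most abundant membrane-bound glutathione transferase, Gsta3 at chr1:21240435-21240634 and Mgst1 at chr6:138140377-138140576, both on the plus strand. Capitals mark TGACNNNGC, the core of the antioxidant response element read by NRF2, which lies on the opposite strand in Mgst1.
Gsta3: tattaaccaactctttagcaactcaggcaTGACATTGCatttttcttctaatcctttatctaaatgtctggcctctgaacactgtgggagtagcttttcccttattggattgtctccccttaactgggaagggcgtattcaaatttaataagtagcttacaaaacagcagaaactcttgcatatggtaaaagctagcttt
Mgst1: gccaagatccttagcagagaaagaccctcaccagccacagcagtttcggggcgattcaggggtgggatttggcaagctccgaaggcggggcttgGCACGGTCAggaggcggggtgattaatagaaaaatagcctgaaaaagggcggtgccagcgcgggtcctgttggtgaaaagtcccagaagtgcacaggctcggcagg
This core was present in 4 of the 49 windows (Gsta3, Gstm5, Gstm7 and Mgst1) and in 12.4% of all promoters. The xenobiotic response core GCGTG, bound by the AhR, was present in 9 of the 49 windows and in 32.4% of all promoters, and in Gstm5 it overlapped both the antioxidant core and TGAGTCA. The STAT motif TTCNNNGAA was present in 5 windows and in 8.30% of all promoters.

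The Ugt1a genes share their last exons and differ in the first exon and its promoter, which is why 4 of these promoters are shown, for Ugt1a1 at chr1:88211809-88212008, Ugt1a9 at chr1:88070629-88070828, Ugt1a5 at chr1:88165862-88166061 and Ugt1a7c at chr1:88094851-88095050, all on the plus strand. Capitals mark GTTAAT, a motif of the liver factor HNF1, which reads ATTAAC on the printed strand.
Ugt1a1: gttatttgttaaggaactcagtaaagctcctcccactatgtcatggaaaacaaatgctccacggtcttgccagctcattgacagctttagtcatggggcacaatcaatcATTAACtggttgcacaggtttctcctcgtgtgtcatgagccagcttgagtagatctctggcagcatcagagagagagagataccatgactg
Ugt1a9: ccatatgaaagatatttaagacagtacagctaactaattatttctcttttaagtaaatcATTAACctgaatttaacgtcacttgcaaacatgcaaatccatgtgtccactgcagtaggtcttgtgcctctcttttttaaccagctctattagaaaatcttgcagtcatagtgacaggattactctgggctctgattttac
Ugt1a5: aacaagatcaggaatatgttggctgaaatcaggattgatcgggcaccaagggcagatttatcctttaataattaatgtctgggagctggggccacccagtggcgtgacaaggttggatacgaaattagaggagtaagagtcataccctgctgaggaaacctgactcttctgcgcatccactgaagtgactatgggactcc
Ugt1a7c: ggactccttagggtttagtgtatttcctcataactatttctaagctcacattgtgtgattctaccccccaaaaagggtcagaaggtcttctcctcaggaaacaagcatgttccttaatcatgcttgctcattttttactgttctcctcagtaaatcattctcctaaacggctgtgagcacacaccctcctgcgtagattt
GTTAAT was found in 7 of the 49 windows, those of Ugt1a1, Ugt1a10, Ugt1a6a, Ugt1a9, Ugt2a3, Ugt3a1 and Gsta3, and in 7.10% of all promoters. These letters do not occur in the windows of Ugt1a5 and Ugt1a7c. The printed stretches of Ugt1a1 and Ugt1a5 were identical at 45.8% of aligned positions, those of Ugt1a5 and Ugt1a7c at 42.1%. A match of letters is a description of the sequence and no evidence of binding.

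Of the 44 genes, 37 reached 1 FPKM in 4 or more libraries and were tested, and 36 of these reached 1 FPKM in all 8. The exception was Ugt1a7c, which reached it in 6. In db/db liver 18 of the 37 were higher and 1 was lower at an adjusted p under 0.05 (limma, Benjamini-Hochberg over all 9863 genes tested), and 18 did not pass. That is 48.6% higher, against 16.0% of all tested genes, and 2.70% lower, against 11.6%. In 18 members all db/db libraries lay above all controls, against 17.3% of tested genes, and in 1 of the tested members all lay below, against 12.1%. The untested Gstp2 also lay lower in all db/db libraries than in any control. The median log2 fold change was 0.61 over the tested members and 0.04 over all tested genes. Some paragraphs below also count genes at an unadjusted p under 0.05 (limma). The share of all tested genes at that threshold was not counted, so those counts have no background and are descriptions only. Fold changes are on the scale log2(FPKM + 1), which understates the change of weakly expressed genes. In whole liver RNA fewer cells of a type and less RNA per cell cannot be told apart.

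**Figure D1:**
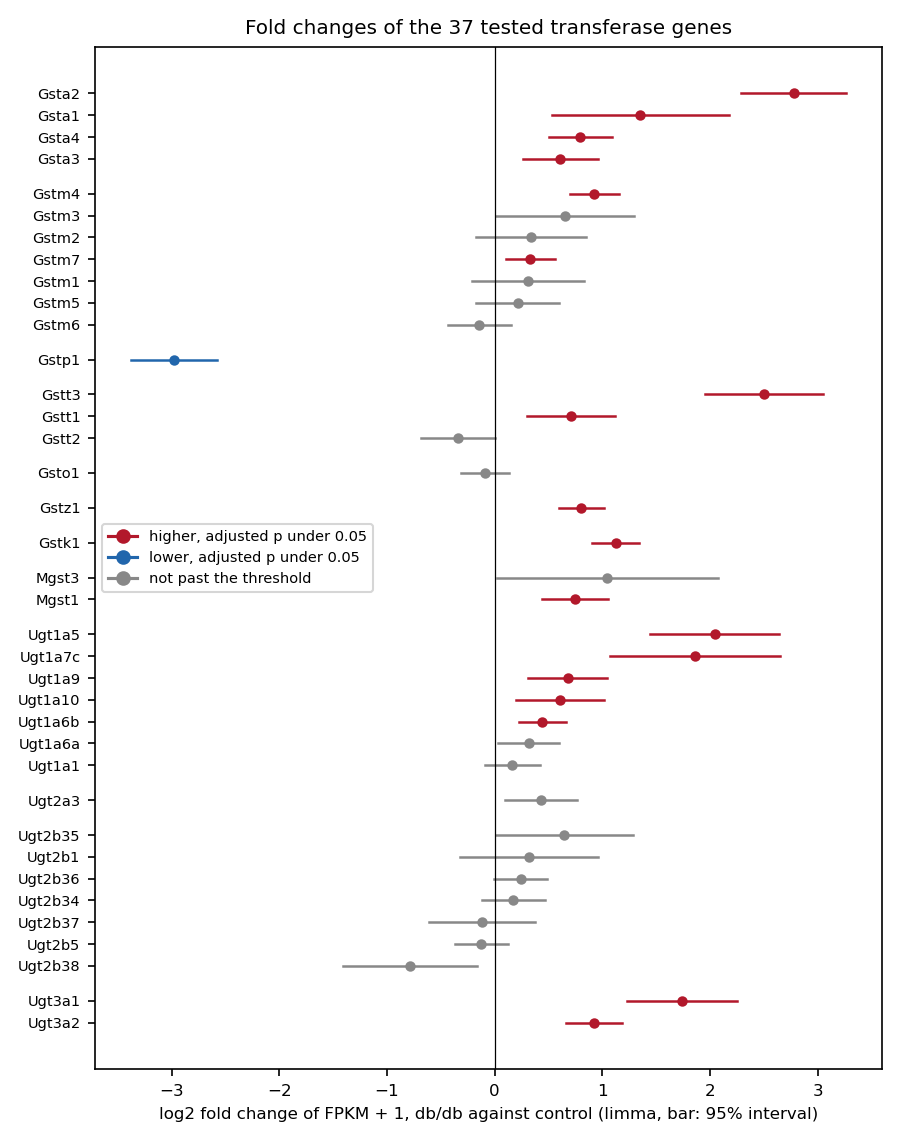
Log2 fold change of FPKM + 1 in db/db against control liver for the 37 tested genes, ordered by subfamily, with points for the limma estimate and bars for its 95% interval. The estimates run from -2.98 for Gstp1 to 2.78 for Gsta2, 18 genes are marked higher and 1 lower, and no Ugt2b gene passed the threshold.

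The libraries held 9592 to 9948 genes at 1 FPKM or more and a relative depth of 0.815 to 1.08 of control replicate 1, while absolute depth is unknown from FPKM. Along the second principal component, with 10.3% of the variance, db/db replicate 1 stood at 27.6 and the other db/db libraries at -14.8 to -4.97. The tissue label was checked against its markers. Hepatocyte genes were at high levels (Apoa2 at 24999.9 ± 3211 FPKM in control and 27885 ± 6846 in db/db livers), but Alb, the albumin gene, was listed at 0 in all 8 libraries, so a 0 in this table can be a failed estimate. Summed markers of T and B cells lay between 0.885 and 3.60 FPKM.

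Gstp1, the single pi class gene expressed here at a tested level, showed the one fall among the members. In mice its liver RNA is known to be more abundant in males. It stood at 597, 732, 1135 and 748 FPKM in control livers and at 118, 91.9, 91.7 and 93.5 FPKM in db/db livers. Even the highest db/db library lay far below the lowest control, and the means of 803 ± 231 and 98.7 ± 12.8 FPKM (SD, n = 4 each) differed 8.14-fold. The log2 fold change was -2.98 (SE 0.18, adjusted p = 1.8e-06), and it kept its call in all 15 alternative settings. Gstp1 ranked 4 among the 44 genes by mean FPKM in control liver and 19 in db/db liver. Its neighbour Gstp2 was not tested, at 0.414 to 1.96 FPKM in control and 0 to 0.37 FPKM in db/db libraries. In the reference transcripts 38.5% of the 31-base words of Gstp1 also occur in Gstp2, so reads of the pair can be confused, but their summed level, 804 ± 231 against 98.9 ± 12.7 FPKM, gave the same picture. Gstp1 lies at chr19:4035407-4037985 (GRCm38, the assembly also called mm10).

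Every alpha class gene (Gsta) was higher in db/db liver. These enzymes conjugate epoxides and products of lipid peroxidation and also reduce lipid peroxides. Gsta2 showed the largest rise of all members, from 77.6, 51.3, 39.4 and 47.4 FPKM in control livers to 299, 328, 338 and 527 FPKM in db/db livers. Its groups lay far apart, with a 6.92-fold difference of the means (log2 fold change 2.78, SE 0.22, adjusted p = 1.21e-05), and it moved from rank 21 to rank 9 of the 44 genes. Gsta3, which in mice detoxifies the epoxide of aflatoxin, was the most abundant alpha class gene, at 1785, 1506, 1808 and 1841 FPKM in control and 2220, 2358, 2630 and 3537 FPKM in db/db livers. Its groups did not overlap, and the rise was smaller, with a log2 fold change of 0.61 (SE 0.16, adjusted p = 0.0147). Gsta4, specialised on 4-hydroxynonenal, an aldehyde from oxidised lipids, was measured at 101, 86.9, 92.1 and 77.9 FPKM in control and 127, 153, 158 and 188 FPKM in db/db livers. All db/db libraries exceeded all controls (log2 fold change 0.80, SE 0.13, adjusted p = 0.00141). Gsta1 went from 6.5 ± 4.37 to 16.1 ± 4.14 FPKM with overlapping groups (log2 fold change 1.35, adjusted p = 0.0208), and lost its call without db/db replicate 4 (adjusted p = 0.059) or control replicate 3 (adjusted p = 0.0603). Only 7.14% of its 31-base words and 39.3% of those of Gsta2 are unique in the reference transcripts. Gsta2 shares 44.7% of its words with Gsta1, and the levels of these genes are therefore uncertain relative to each other. Within the db/db group replicate 1 was the lowest library for 4 of 4 Gsta genes and replicate 4 the highest for 4 of 4.

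**Figure D2:**
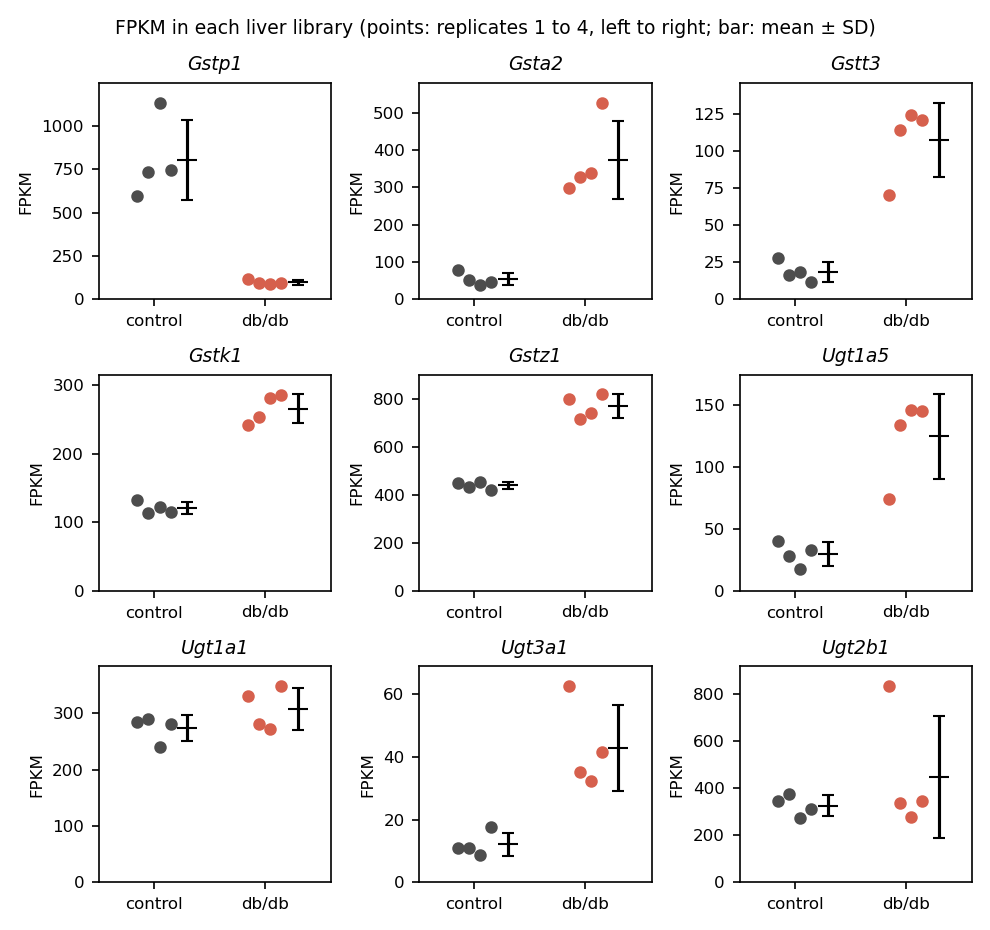
FPKM in each library for 9 genes, with control livers at the left and db/db livers at the right of each panel, points for replicates 1 to 4 and bars for the mean ± SD of 4 libraries, on axes that start at 0. The groups are separate for Gstp1 (597 FPKM or more against 118 or less), Gsta2, Gstt3, Gstk1, Gstz1, Ugt1a5 and Ugt3a1, and overlap for Ugt1a1 and for Ugt2b1, where db/db replicate 1 stands alone at 836 FPKM.

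Of the 3 tested theta class genes (Gstt), which include enzymes acting on small halogenated compounds, 2 were higher. Gstt3 was measured at 27.8, 16.5, 18.5 and 11.7 FPKM in control livers and at 70.9, 115, 125 and 121 FPKM in db/db livers. The groups did not overlap, and the 5.80-fold rise (log2 fold change 2.50, SE 0.25, adjusted p = 4.91e-05) was second in size among the members. Gstt1 was the most abundant of the class, at 304, 221, 236 and 208 FPKM in control and 273, 443, 488 and 406 FPKM in db/db livers. Here db/db replicate 1 lay under control replicate 1, so the groups overlapped although the gene passed (log2 fold change 0.71, SE 0.18, adjusted p = 0.016). Gstt2 did not pass, at 54 ± 7.69 FPKM in control and 42.7 ± 8.88 in db/db livers (log2 fold change -0.34, adjusted p = 0.129), and Gstt4 was listed at 0 in all 8 libraries. The tested theta genes lie together on chromosome 10, from the start of Gstt3 at position 75774115 to the end of Gstt2 at position 75837424.

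The mu class (Gstm) is a cluster on chromosome 3 whose enzymes conjugate a broad range of electrophiles. Of its 7 genes, all tested, 2 were higher in db/db liver and none lower, against 3 higher and none lower at an unadjusted p under 0.05 (limma). Gstm4 was measured at 27.6, 27.7, 26.4 and 22.5 FPKM in control livers and 48.3, 53.9, 47.1 and 51.7 FPKM in db/db livers, with no overlap and little spread in either group (log2 fold change 0.92, SE 0.10, adjusted p = 0.000121). Gstm7 was measured at 35, 27.7, 30.2 and 30.3 FPKM in control and 40.2, 37.9, 36 and 41.3 FPKM in db/db livers. Its groups were only just separate (log2 fold change 0.33, SE 0.10, adjusted p = 0.0361), and the call was lost without any 1 of db/db replicates 1, 2 and 4 and control replicates 2, 3 and 4 (adjusted p = 0.0627 to 0.0946), as well as under median-ratio scaling (adjusted p = 0.0774) and quantile normalization (adjusted p = 0.0503). The most abundant mu gene, Gstm1, stood at 958, 943, 969 and 744 FPKM in control and 652, 1388, 1531 and 1112 FPKM in db/db livers. In 3 db/db libraries it lay above every control and in db/db replicate 1 below every control, which left a log2 fold change of 0.31 (95% interval -0.21 to 0.83, adjusted p = 0.359). Without db/db replicate 1 it was 0.57 (adjusted p = 0.0149), and that of Gstm3 rose from 0.65 (adjusted p = 0.119) to 0.91 (adjusted p = 0.018). Other libraries moved them the other way. The estimate of Gstm1 was 0.16 (adjusted p = 0.657) without db/db replicate 3, and that of Gstm3 was 0.36 (adjusted p = 0.255) without db/db replicate 2. The remaining mu genes, Gstm2, Gstm5 and Gstm6, had log2 fold changes of 0.34, 0.21 and -0.14 and did not pass. The estimate of Gstm2 was 0.068 without db/db replicate 2, that of Gstm5 was 0.090 without db/db replicate 4, and that of Gstm6 lay between -0.22 and -0.052 when 1 library was left out.

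The zeta and kappa classes have 1 gene each, and both were higher. Gstz1, which is also maleylacetoacetate isomerase, a step of tyrosine breakdown, was measured at 449, 435, 456 and 422 FPKM in control livers and 804, 718, 742 and 822 FPKM in db/db livers. The groups were widely separate, with a log2 fold change of 0.81 (SE 0.09, adjusted p = 0.000174). Gstk1, the kappa class enzyme of mitochondria and peroxisomes, was measured at 133, 114, 123 and 116 FPKM in control and 242, 253, 281 and 285 FPKM in db/db livers. Its rise was 2.19-fold (log2 fold change 1.12, SE 0.10, adjusted p = 2.57e-05), and no library of either group came near the other group. Gsto1, the omega class enzyme that reduces dehydroascorbate, was measured at 96.3, 106, 94.2 and 91.1 FPKM in control and 95.4, 92.9, 79.9 and 97.4 FPKM in db/db livers. The ranges overlapped (log2 fold change -0.09, 95% interval -0.31 to 0.14, adjusted p = 0.562). Gsto2 stayed under 1 FPKM in every library and was not tested.

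Mgst1, a glutathione transferase and peroxidase of the endoplasmic reticulum and the outer mitochondrial membrane, was the most abundant of the 44 genes in both groups. It was measured at 7087, 7076, 5266 and 6196 FPKM in control livers and 9717, 11103, 11070 and 10887 FPKM in db/db livers. No library overlapped (1.67-fold, log2 fold change 0.75, SE 0.14, adjusted p = 0.0027), and the gene alone took 0.975% ± 0.142 of all FPKM in control and 1.82% ± 0.0527 in db/db livers (SD, n = 4). Mgst3, a relative with glutathione peroxidase activity, was measured at 11.1, 11.6, 10 and 8.77 FPKM in control and 6, 26.2, 43 and 34.8 FPKM in db/db livers. In db/db replicate 1 it was the lowest of all 8 libraries, and in the other db/db libraries above every control. The log2 fold change was 1.05 (adjusted p = 0.119) with all libraries and 1.63 (adjusted p = 9.89e-05) without db/db replicate 1, and 0.74 (adjusted p = 0.261) without db/db replicate 3. Mgst2, a related gene, reached 1 FPKM in 1 library only and was not tested.

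**Figure D3:**
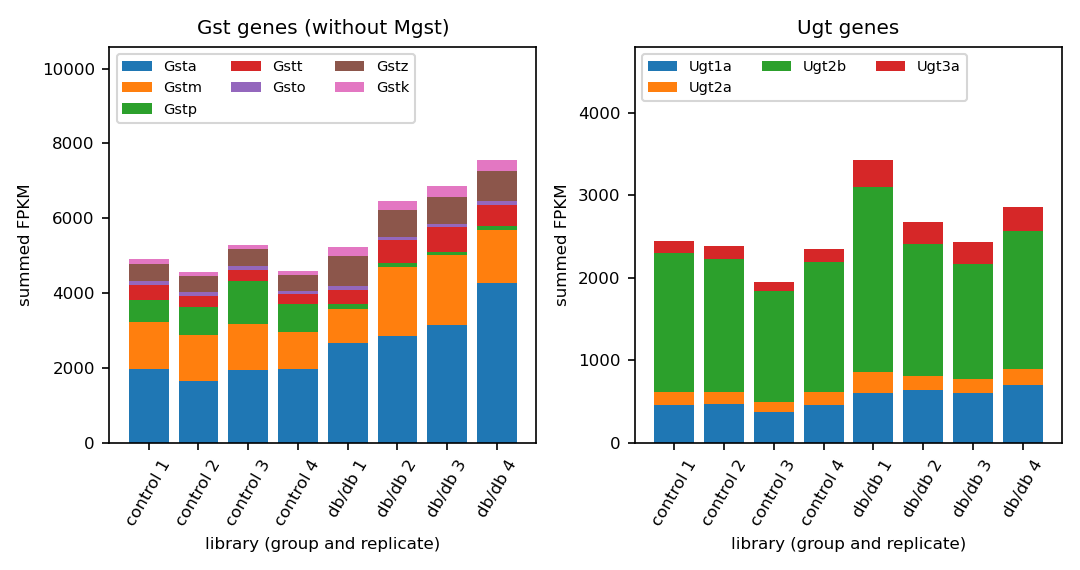
Summed FPKM of the glutathione transferase genes without Mgst (left) and of the Ugt genes (right) in each library, stacked by subfamily on axes that start at 0, with libraries named by group and replicate. The Gstp band makes up 16.5% of the Gst sum on average in controls and 1.57% in db/db livers, and the Ugt2b band 68.2% and 60.3% of the Ugt sum.

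Added over subfamilies, the levels showed a changed make-up of the Gst pool. The sum of the Gst genes without Mgst was 4900, 4566, 5294 and 4598 FPKM in control and 5223, 6470, 6863 and 7557 FPKM in db/db livers. The ranges overlapped only because db/db replicate 1 lay under control replicate 3, while it lay above the other controls. Within this sum the pi class took 12.2%, 16.0%, 21.5% and 16.3% in control livers and 2.26%, 1.42%, 1.34% and 1.24% in db/db livers. The alpha class took 39.0% ± 3.10 in control and 49.3% ± 5.59 in db/db livers with no overlap, and the mu class 24.3% ± 2.43 and 23.1% ± 5.58 with overlap. Shares of 1 sum depend on each other, and a fall of the pi class by itself raises the shares of the other classes. The alpha share without the pi class was not computed. The alpha sum itself went from 1885 ± 153 FPKM in control to 3232 ± 721 FPKM in db/db livers with no overlap. All 44 genes together took 2.06% ± 0.150 of all FPKM in control and 3.41% ± 0.0983 in db/db livers, again with no overlap. Sums are descriptions, and no test was run on them.

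The Ugt1a genes are read from alternative first exons joined to shared last exons, over chr1:88055388-88220002. Of the 9 genes 7 were tested and 5 were higher in db/db liver, and all 7 estimates were above 0. Ugt1a5 was measured at 40.6, 27.9, 17.3 and 33.2 FPKM in control and 74.3, 134, 146 and 146 FPKM in db/db livers. The groups did not overlap, and the mean rose 4.20-fold (log2 fold change 2.04, SE 0.27, adjusted p = 0.000373). Ugt1a7c was measured at 0.644, 3.45, 3.14 and 0.993 FPKM in control and 9.71, 6.36, 6.85 and 16 FPKM in db/db livers, and the lowest db/db library exceeded the highest control (log2 fold change 1.86, SE 0.36, adjusted p = 0.00342). Ugt1a9, whose human counterpart conjugates bulky phenols, was measured at 65.3, 57.2, 42.9 and 57 FPKM in control and 79.5, 119, 75.5 and 85.7 FPKM in db/db livers. The groups were separate (log2 fold change 0.68, SE 0.17, adjusted p = 0.0124).

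Ugt1a6b, one of a pair of near copies that act on small phenols, was measured at 36.3, 40, 32.5 and 37.5 FPKM in control and 54.2, 48.6, 48.8 and 48.3 FPKM in db/db livers. It rose without overlap (log2 fold change 0.44, SE 0.10, adjusted p = 0.00774). The groups of its partner Ugt1a6a, at 40.3 ± 7.22 and 49.9 ± 1.97 FPKM, were also separate, but only just. The lowest db/db library stood at 48.04 FPKM and the highest control at 47.87 FPKM. Ugt1a6a did not pass with all libraries (adjusted p = 0.0905) and passed without control replicate 4 (adjusted p = 0.0407). Of the 31-base words of Ugt1a6b 83.9% also occur in Ugt1a6a, and the pair summed to 76.9 ± 9.66 FPKM in control and 99.8 ± 3.81 in db/db livers with no overlap. Ugt1a10 was low, at 1.47 ± 0.163 and 2.88 ± 1.04 FPKM (log2 fold change 0.61, adjusted p = 0.0308), and lost its call without any 1 of db/db replicates 1 and 4 and control replicates 1, 3 and 4 (adjusted p = 0.0603 to 0.0874).

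Ugt1a1, the enzyme that conjugates bilirubin, was the most abundant Ugt1a gene, at 284, 290, 240 and 280 FPKM in control and 330, 281, 272 and 349 FPKM in db/db livers. The groups overlapped, and the log2 fold change of 0.17 had a 95% interval of -0.09 to 0.42 (adjusted p = 0.316). Its share of the Ugt1a sum was 62.2% ± 1.36 in control and 48.4% ± 5.01 in db/db livers, and that of Ugt1a5 was 6.66% ± 1.78 and 19.6% ± 5.07, both with no overlap. Across the 9 genes 15.8% to 47.0% of the 31-base words are unique, so the split between them rests on how the authors' quantification shared out reads of the common exons. Ugt1a2 and Ugt1a8 were not tested, with means under 1 FPKM in both groups. The promoters printed above for Ugt1a1 and Ugt1a9 hold GTTAAT and those of Ugt1a5 and Ugt1a7c do not, and both kinds include a gene that rose.

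The Ugt2b genes, a cluster on chromosome 5 whose enzymes act on steroids and bile acids, made up the larger part of the Ugt level, and none of the 7 passed the test in limma. At an unadjusted p under 0.05, 1 was higher (Ugt2b35) and 1 lower (Ugt2b38). Ugt2b5, the most abundant Ugt gene, was measured at 662, 577, 539 and 592 FPKM in control and 568, 553, 471 and 583 FPKM in db/db livers. Its ranges overlapped broadly (log2 fold change -0.12, 95% interval -0.37 to 0.12, adjusted p = 0.437). Ugt2b1, added here after its values were seen, was measured at 344, 375, 274 and 313 FPKM in control and 836, 336, 277 and 348 FPKM in db/db livers. In db/db replicate 1 the level was far above all other libraries, and without it the estimate turned from 0.32 (adjusted p = 0.442) to -0.026 (adjusted p = 0.909). Ugt2b38 had the lowest estimate, -0.79 (adjusted p = 0.0602), from 34.2 ± 6.98 to 20.7 ± 9.25 FPKM, and passed without db/db replicate 1 (adjusted p = 0.0165) and without db/db replicate 4 (-0.93, adjusted p = 0.0494), but stood at -0.53 (adjusted p = 0.125) without db/db replicate 3. It shares 44.1% of its words with Ugt2b5. The estimates for Ugt2b34, Ugt2b35, Ugt2b36 and Ugt2b37 were 0.17, 0.65, 0.24 and -0.12. Ugt2b35 passed when db/db replicate 3 was left out (0.86, adjusted p = 0.0462). Leaving out db/db replicate 1 instead gave 0.35 for this gene (adjusted p = 0.241). Ugt2b36 passed under quantile normalization (0.38, adjusted p = 0.044). For Ugt2b34 the estimate was 0.072 once db/db replicate 1 was removed. Removing that library gave -0.31 for Ugt2b37, whose estimate turned to 0.029 when db/db replicate 3 was dropped. In db/db replicate 1 the level was the highest of its group for 6 of 7 Ugt2b genes. The Ugt2b share of all Ugt FPKM was 69.0%, 67.4%, 69.0% and 67.6% in control and 65.5%, 59.7%, 57.6% and 58.5% in db/db livers. No db/db library reached the lowest control share, although the Ugt2b sums themselves overlapped.

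Ugt2a3, which acts on bile acids in human cells, was measured at 154, 152, 117 and 152 FPKM in control and 250, 172, 162 and 198 FPKM in db/db livers. All db/db libraries were above all controls, but the gene did not pass (log2 fold change 0.43, SE 0.15, adjusted p = 0.0568). Leaving out db/db replicate 3 brought it past the threshold (0.51, adjusted p = 0.041). The gene called Ugt2a1 in the table, whose identifier belongs to Ugt2a2 in GENCODE M21, was not tested, with 0.0263 FPKM in 1 library and 0 in the others.

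Both Ugt3a genes, neighbours on chromosome 15 whose human counterparts use sugars other than glucuronic acid, were higher. Ugt3a1 was measured at 11.1, 10.9, 8.8 and 17.6 FPKM in control and 62.7, 35.2, 32.4 and 41.5 FPKM in db/db livers. The groups were separate, with a 3.55-fold rise (log2 fold change 1.74, SE 0.23, adjusted p = 0.000373). Ugt3a2 was more abundant, at 133, 148, 106 and 131 FPKM in control and 268, 230, 234 and 246 FPKM in db/db livers. It too showed no overlap (log2 fold change 0.92, SE 0.12, adjusted p = 0.000284), and the pair went from 6.18% ± 0.387 to 10.2% ± 0.570 of all Ugt FPKM.

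**Figure D4:**
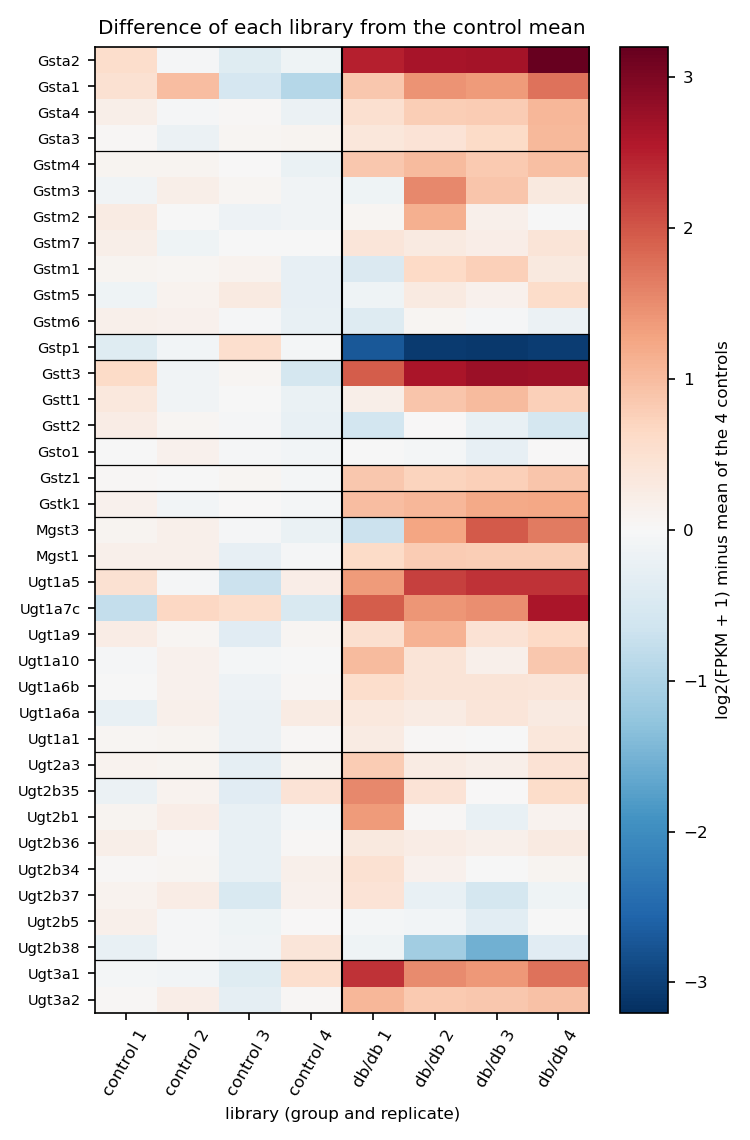
Difference of log2(FPKM + 1) in each library from the mean of the 4 controls for the 37 tested genes, in rows by subfamily, with control replicates at the left, db/db replicates at the right, red for higher and blue for lower. Gstp1 is the 1 row that is deep blue in all db/db libraries, and db/db replicate 1 differs from the other db/db replicates in the Mgst3, Gstm1 and Ugt2b1 rows.

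Within the groups, the highest and the lowest library were counted by subfamily. The same count over all tested genes was not made, so these numbers have no background. Some members of a subfamily share sequence, and their counts are then not independent. Of the 37 tested genes db/db replicate 1 held the highest level of its group for 12 and the lowest for 15, replicate 3 the lowest for 16 and replicate 4 the highest for 12, so replicate 1 was not alone in this. It was lowest for 4 of 4 Gsta, 3 of 3 Gstt and 2 of 2 Mgst genes, and highest for 6 of 7 Ugt2b and 2 of 2 Ugt3a genes, while db/db replicate 3 was lowest for 7 of 7 Ugt2b genes. Without db/db replicate 1, 19 members were higher and 2 lower. In the control group replicate 1 was highest for 15 of the 37 and replicate 3 lowest for 17, among them 6 of 7 Ugt2b and 5 of 7 Ugt1a genes.

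Genes that feed and follow the 2 reactions were counted in lists, to be set beside 16.0% of all tested genes higher and 11.6% lower. For UDP-glucuronate supply, 2 of 6 tested genes were higher and none lower in limma. Ugp2, which makes UDP-glucose, went from 286 ± 52.3 to 435 ± 45.2 FPKM (log2 fold change 0.62, adjusted p = 0.00988). Ugdh, which oxidises it to UDP-glucuronate, went from 75.6 ± 14.9 to 102 ± 9.84 FPKM (log2 fold change 0.45, adjusted p = 0.0447). The call for Ugdh was lost without any 1 library other than control replicate 1 (adjusted p = 0.0563 to 0.117). For glutathione synthesis and turnover 2 of 10 were higher and none lower, namely Gsr, glutathione reductase (0.47, adjusted p = 0.00418), and Gclc, the catalytic subunit of the rate-limiting ligase (41.7 ± 10.5 to 70.6 ± 10.1 FPKM, log2 fold change 0.77, adjusted p = 0.0073). In both lists the same numbers, 2 higher and 0 lower, were counted at an unadjusted p under 0.05.

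Among genes of mercapturate formation and other glutathione-linked enzymes 3 of 9 were higher and 2 lower. Glo1, the glyoxalase that acts on methylglyoxal joined to glutathione, went from 207 ± 9.21 to 525 ± 33.5 FPKM (log2 fold change 1.34, adjusted p = 4.6e-06). Hagh, the hydrolase of the following step, named here after its values were seen, went the other way, from 312 ± 18 to 228 ± 4.87 FPKM (-0.45, adjusted p = 0.00412). Nat8, which acetylates cysteine conjugates, had an estimate of 1.08 (adjusted p = 0.000461), and Esd, a hydrolase of glutathione thioesters, 0.55 (adjusted p = 0.00405). The second lower gene was Ccbl2, a kynurenine aminotransferase and cysteine conjugate lyase (-1.02, adjusted p = 0.00589), also named after its values were seen. Of 6 tested exporters 3 were higher and 1 lower. The higher genes were Abcg2 (0.95, adjusted p = 0.000349), Abcc4 (1.42, adjusted p = 0.000397) and Abcc2 (0.71, adjusted p = 0.0434). Abcc4 was weakly expressed, at 0.382 ± 0.126 FPKM in control and 2.78 ± 0.996 FPKM in db/db livers. Its controls lay at 0.246 to 0.549 FPKM, so it reached the filter of 1 FPKM in 4 libraries through the db/db group alone. Its call therefore adds little to the count. Abcc2, the canalicular pump for conjugates, was named after its values were seen. The lower gene was Abcc6 (-0.47, adjusted p = 0.0273). The call for Abcc2 was lost without db/db replicate 2 or any 1 control (adjusted p = 0.0548 to 0.102), without filter (adjusted p = 0.0963), under median-ratio scaling (adjusted p = 0.0524) and under quantile normalization (adjusted p = 0.0685), and its estimate was 0.46 without db/db replicate 1. That of Abcc6 was lost without any 1 library other than db/db replicate 3 and control replicate 4 (adjusted p = 0.0504 to 0.0781).

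Among the regulators, 2 of 17 were higher and 1 lower. Nfe2l2, the gene of NRF2, went from 29.4 ± 5.98 to 62.7 ± 14.4 FPKM (log2 fold change 1.06, adjusted p = 0.00273). Stat5b, which relays growth hormone, had an estimate of 0.35 (adjusted p = 0.0406) and lost its call without any 1 of the 8 libraries (adjusted p = 0.0557 to 0.0954). Bcl6, a repressor of STAT5 target genes, had one of -1.11 (adjusted p = 0.0199) and lost its call without db/db replicate 4, control replicate 2 or control replicate 3 (adjusted p = 0.052 to 0.0576). Of NRF2 targets outside the transferases, a list that repeats Gclc, 6 of 10 were higher and none lower, against 7 and 0 at an unadjusted p under 0.05 (limma). They include Ephx1, the microsomal epoxide hydrolase (1.24, adjusted p = 6.49e-06), Nqo1, a textbook target (2.83 ± 0.621 to 17.2 ± 4.28 FPKM, log2 fold change 2.23, adjusted p = 2.07e-05), and Srxn1, sulfiredoxin (1.12, adjusted p = 0.000177). The tested targets that did not pass were named after their values were seen. They were Hmox1 (-0.09, adjusted p = 0.776), Gclm (0.03, adjusted p = 0.9), Txnrd1 (0.29, adjusted p = 0.0848) and G6pdx (-0.10, adjusted p = 0.699). Of targets of CAR, PXR and AhR 5 of 9 were higher and 1 lower. Cyp2b10, a textbook target of CAR, went from 1.63 ± 0.825 to 23.7 ± 1.73 FPKM (3.29, adjusted p = 3.05e-06), Aldh1a1, a retinal dehydrogenase, had an estimate of 1.63 (adjusted p = 8.11e-06) and Cyp2c29, a cytochrome P450, one of 1.21 (adjusted p = 0.00114). The other higher genes, named after their values were seen, were Cyp3a13, a cytochrome P450 (0.53, adjusted p = 0.0055), and Tiparp, a target of AhR (0.56, adjusted p = 0.0376), whose call was lost without any 1 library other than db/db replicate 1 and control replicate 4 (adjusted p = 0.0536 to 0.102). Cyp1a2, a textbook target of AhR, fell (-1.10, adjusted p = 0.00748). Cyp3a11, a textbook target of PXR, did not pass, at -0.17 (adjusted p = 0.461) and at 0.038 after quantile normalization (adjusted p = 0.87). Over all tested genes the background is again 16.0% higher and 11.6% lower, and the median estimate of 0.04 stands against 0.74 for the NRF2 list, 0.53 for the CAR, PXR and AhR list and 0.04 for the regulators.

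Markers of other liver cells were read in the same fit, in which 16.0% of all tested genes were higher and 11.6% lower. Of the tested markers, 2 of 6 Kupffer cell genes were lower (Marco, -1.21, adjusted p = 0.0284, and Clec4f, -0.56, adjusted p = 0.0337), as were 2 of 6 sinusoidal endothelial genes (Clec4g, -0.50, adjusted p = 0.00422, and Stab1, -0.84, adjusted p = 0.0233). Marco stood at 3.25, 1.80, 1.17 and 8.05 FPKM in control and 0.509 to 0.882 FPKM in db/db livers. It reached the filter of 1 FPKM in 4 libraries through the control group alone, so its call adds little to the count. The calls of Marco, Clec4f and Stab1 were each lost without db/db replicate 1, db/db replicate 4 or control replicate 1, that of Clec4f also without db/db replicate 3 or control replicate 2, and that of Marco also without db/db replicate 2 or 3 (adjusted p = 0.0504 to 0.084 over these). The endothelial marker Lyve1, named after its values were seen, stood higher in all db/db libraries than in any control and did not pass (2.09 ± 0.451 to 3.82 ± 1.55 FPKM, log2 fold change 0.60, adjusted p = 0.0528), but passed without db/db replicate 1 (adjusted p = 0.024). At an unadjusted p under 0.05, 1 endothelial gene was higher and 3 were lower. Summed Kupffer markers ranged from 72.0 to 122 FPKM in control and 53.1 to 76.6 in db/db livers, endothelial markers from 71.7 to 102 and 58.2 to 67.9. None of the 4 tested stellate, 2 cholangiocyte and 1 lymphocyte markers passed in limma, and at an unadjusted p under 0.05 only the lymphocyte marker Ptprc was counted, 1 gene lower in db/db liver. Of 5 tested hepatocyte markers 1 was lower, Ttr (-0.70, adjusted p = 0.00681), whose estimate was 0.23 after quantile normalization (adjusted p = 0.248). The part of these shifts in the values of the transferase genes was not tested.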

How the data were processed

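Per the labels, total RNA of 4 db/db and 4 C57BL/6 livers was depleted of ribosomal RNA and made into stranded libraries. Per the submitters' processing notes, the authors used cutadapt 1.9.3, HISAT2 2.0.4 with mouse build mm10, Cufflinks and Cuffdiff. Versions of the last programs, the annotation and any strand setting were not given in the sources used here. FPKM, computed by the authors per gene and library, is the unit of the deposited table. Since these values are not counts, a count model was not fitted, and absolute depth is unknown.

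Genes that reached 1 FPKM in 4 or more libraries (9863 genes) were compared on log2(FPKM + 1) with limma 3.58.1 in R 4.3.3 (empirical Bayes with a mean-variance trend, 2-sided, no covariate), with Benjamini-Hochberg adjustment over all tested genes and a threshold of 0.05. The procedure was tested on simulated data. The labels do not state that the 4 libraries of a group are different animals, so p-values reflect only the library-to-library spread, part of which may be technical.

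The members and the gene lists were chosen with earlier results of these data known. Values of all 8 libraries are printed for members that passed, did not overlap between groups and averaged at least 5 FPKM in the higher group, and for the member of each subfamily with the highest mean. Mgst3 and Ugt2b1 were added after their values were seen, as were Hagh, Ccbl2, Abcc2, Cyp3a13, Tiparp, Lyve1, Hmox1, Gclm, Txnrd1 and G6pdx. From each list up to 3 passing genes with the smallest adjusted p were named, with Cyp2b10, Cyp3a11, Cyp1a2 and Nqo1. Coordinates and gene spans were taken from GENCODE M21 (GRCm38) by identifier, promoters from RefSeq (GRCm38.p6). Uniqueness is the share of a gene's 31-base words found in no transcript of another gene of GENCODE M21. Stretches of promoter were compared by global alignment.

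Alternatives were a pseudocount of 0.1, no filter, a filter of 5 FPKM, median-ratio scaling, quantile normalization, array weights, no mean-variance trend, and each library left out in turn.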

Additional observations from a re-analysis of the deposited data

Results flagged for a closer look

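In 74 sets of 4 libraries (37 tested genes in each of 2 groups) the gap of the highest or lowest library to its neighbour was divided by the range, and 10 sets exceeded Dixon's 95% critical value, where chance gives about 1 in 20. Of these, 5 concerned db/db replicate 1 and 3 a control library. In db/db replicate 1 the ratios were 0.928 for Gstp1 (118 FPKM against 91.7 to 93.5), 0.919 for Ugt1a6b (54.2 against 48.3 to 48.8), 0.873 for Ugt2b1 (836 against 277 to 348), 0.845 for Mgst1 (9717 against 10887 to 11103) and 0.832 for Ugt1a5 (74.3 against 134 to 146). Gsta2 in db/db replicate 4 had a ratio of 0.831 (527 FPKM against 299 to 338), and Gstm2 in db/db replicate 2 one of 0.891 (128 against 56.4 to 64.2). Among control libraries the ratio was 0.835 for Gsta3 in replicate 2 (1506 FPKM against 1785 to 1841), 0.884 for Gstm1 in replicate 4 (744 against 943 to 969) and 0.948 for Ugt2a3 in replicate 3 (117 against 152 to 154).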

How the results depend on the processing

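Under 15 alternatives 16 of the 19 called members kept their call in each, and the exceptions were Gsta1, Gstm7 and Ugt1a10. The number of members higher ranged from 15 to 20 when 1 library was left out, and from 16 to 20 under the other settings. The number lower was 1, or 1 to 2 with 1 library left out, and it was 2 under median-ratio scaling, under quantile normalization and with array weights, where Ugt2b38 was the second gene; the cause was not tested. Estimates turned in sign for Ugt2b1 (0.32, and -0.026 to 0.50 with 1 library left out) and Ugt2b37 (-0.12, and -0.31 to 0.029), neither of which passed, and under quantile normalization for Cyp3a11 (0.038) and Ttr (0.23); the cause was not tested. Without filter Gsta1 (adjusted p = 0.0617) and Ugt1a10 (adjusted p = 0.068) no longer passed. Gstm7 lost its call under median-ratio scaling (adjusted p = 0.0774) and quantile normalization (adjusted p = 0.0503). Genes outside the families that lost theirs were Abcc2, Tiparp and Ugdh without filter and under both scalings, Stat5b under both scalings, Ugdh with no mean-variance trend, and Bcl6, Clec4f, Marco and Stab1 without filter (adjusted p = 0.0524 to 0.0963 over these). With array weights Lyve1 (adjusted p = 0.0192) and the members Gstm3 (adjusted p = 0.0334) and Mgst3 (adjusted p = 0.0183) gained a call. Scaling moved the median of all genes by less than 0.1. The planned comparison without members over 90% identical in protein was not run, as no protein table was used here. In its place, chosen after seeing the data, members with under 50% unique 31-base words were left out, which gave a Gstp share of 16.7% in control and 1.66% in db/db livers. No paired analysis was possible because only the number 5 occurs in the titles of both groups. Absolute depth is unknown, and the filter on low values left 7 members untested, such as Gstp2 and Ugt1a8.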
